A study of Sus scrofa domesticus with 4 samples.

Results

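LOC396781 is the pig gene that RefSeq also lists under the synonym IGHG, the heavy chain of immunoglobulin G (IgG). It is 1 of the 3029 genes that could be named on the array. All non-control probes whose RefSeq accession leads to this gene were taken, which gave 13 of the 43603 probes of the array, each printed as 1 spot per array. The 13 probes share 1 accession, NM_213828. The gene was chosen by the ratios of treated over untreated RNA in these same data, so its treatment ratios are given as a description. Its 2 bright probes are part of the fit over all probes, but their place in that fit is not read as a test.

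IgG is the main antibody of serum, built from a pair of heavy and a pair of light chains. Its heavy chain messenger RNA is made at very high levels by plasma cells, the antibody-secreting end stage of B cells, and at lower levels by B cells that have switched class. In the uterus, plasma cells and B cells lie in the endometrial stroma as a minor population beside T cells, natural killer cells and macrophages. Several heavy chain gamma genes of the pig are close copies of each other, so a probe named for this record may also bind transcripts of its relatives. The sequences of the probes were not used here, and which part of the transcript each one reads is not given in the sources used here.

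The samples were endometrial explants, slices of the uterine lining of about 100 mg and 3 mm thickness, from crossbred gilts (Large White x Polish Landrace) of 7 to 8 months on days 15 to 16 of gestation. Orexin B, a peptide best known from the hypothalamus, was added at 10 nM to the culture of treated explants for 24 h, and untreated explants spent the same time with no addition, both after a 2 h preincubation in 2 mL of medium. Each of 4 two-colour arrays compared treated with untreated RNA, with the treated RNA in the red dye Cy5 on arrays 1 and 3 and in the green dye Cy3 on arrays 2 and 4. The study used 4 gilts, the labels tie no animal to an array, and cultures were run in duplicate in 4 separate experiments, so the 4 arrays are the replicates and their number limits the precision. Explants hold every cell type of the slice.

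The arrays differed in how much they detected. Between 27.8% and 36.2% of non-control spots were well above background in Cy3. In Cy5 the share was 82.4% to 86.7% on arrays 1, 3 and 4 but 46.8% on array 2, whose scan was made on a different day. A probe was tested where either the treated or the untreated channel exceeded background clearly on each of the 4 arrays. This held for 13783 probes, among them 2 of the 13 LOC396781 probes. No LOC396781 spot was saturated or marked as an outlier. Markers of the labelled tissue were present: 5 of 5 epithelial genes on the array, among them EPCAM and KRT8, and 6 of 6 genes of stroma and smooth muscle, among them DCN and COL1A2, were well above background in all 8 channels.

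By both bright probes, LOC396781 RNA was about 2 times lower in the treated explants. The log2 ratio of treated over untreated RNA, averaged over the 2 probes, was -1.02 on array 1, -0.57 on array 2, -1.39 on array 3 and -1.002 on array 4, with a mean of -0.99 ± 0.33 (SD, n = 4), which is 1.99 times lower. The drop ran from 1.49 times on array 2 to 2.61 times on array 3. In RNA of whole explants, fewer IgG-making cells and less RNA per cell cannot be told apart. No LOC396781 probe was called, and neither was any other: limma called 0 of the 13783 probes after Benjamini-Hochberg adjustment (0% called, smallest adjusted p = 0.999), and 496 (3.6%) had an unadjusted p under 0.05, 259 of them (1.88%) with a lower value. The gene was chosen from this contrast, so nothing is read from its place in these counts. The labelling text that all samples share can also be read as untreated RNA always in Cy3. The dye labels of the single arrays, and the authors' table with the sign of arrays 2 and 4 turned, differ from that reading and were followed here. With it the mean of these 2 probes was -0.21, from -1.02, 0.57, -1.39 and 1 on arrays 1 to 4.

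The 2 bright probes moved together. A_72_P152696 stood at -1.21, -0.53, -1.46 and -1.19 on arrays 1 to 4. Its estimate was -1.10 ± 0.19 (moderated SE of the fit, n = 4), or 2.14 times lower. A_72_P716828 stood at -0.82, -0.62, -1.31 and -0.81, with an estimate of -0.89 ± 0.18, or 1.85 times lower. On every array both probes were below 0, and both put array 3 lowest and array 2 highest. Their difference, A_72_P152696 minus A_72_P716828, was -0.39, 0.09, -0.15 and -0.38 on arrays 1 to 4, a mean of -0.21 ± 0.23 (SD, n = 4). It was below 0 on arrays 1, 3 and 4, and whether the 2 probes differ was not tested. Of the 13783 tested probes, 9 had a lower estimate than A_72_P152696 and 25 a lower one than A_72_P716828. That rank is part of what chose the gene. Of the 13570 tested probes with a value on each array, 498 (3.67%) were below 0 on 4 of 4 arrays.

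**Figure D1:**
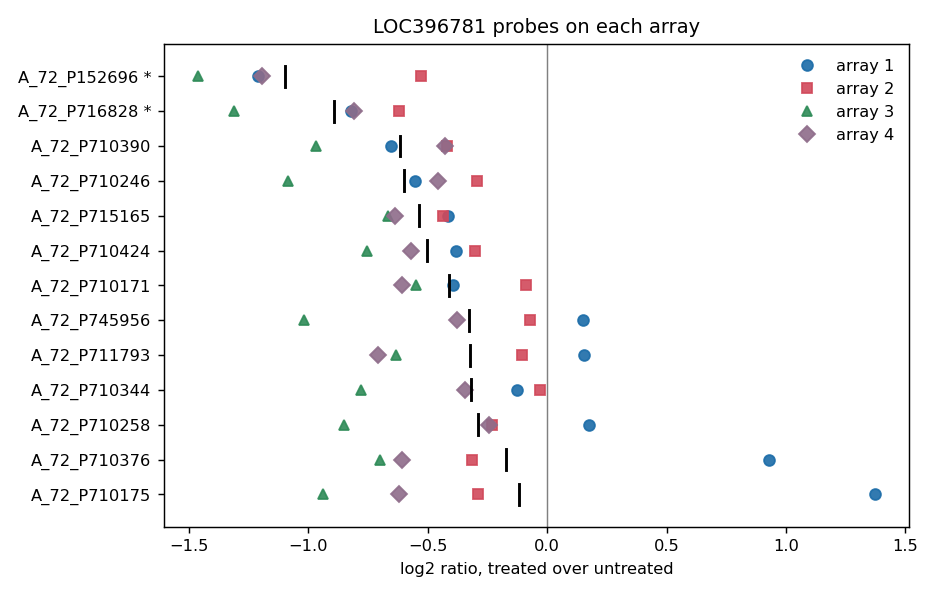
Log2 ratio of treated over untreated RNA (horizontal) for the 13 LOC396781 probes (vertical, ordered by mean), with 1 symbol per array and a black bar at the mean of the 4 arrays; an asterisk marks the 2 probes bright enough to be tested. Both bright probes lie left of 0 on every array, and the only points right of 0 are 5 dim probes on array 1, up to 1.37.

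The dye term of the same fit, which the choice of the gene did not use and which is log2 of Cy5 over Cy3 with treatment taken out, was -0.24 ± 0.19 for A_72_P152696 and -0.18 ± 0.18 for A_72_P716828 (moderated SE, n = 4). Since the treatment terms are large by choice, the sizes of the 2 terms are not compared. Neither dye term passed limma's test (adjusted p = 0.582 and 0.662). Over all tested probes limma called 0 for the dye (0% called), and 1952 (14.2%) had an unadjusted p under 0.05. When each array was centred on its median with no intensity-dependent dye correction, the 2-probe ratios became -0.06, -0.60, 0.09 and -2.01 on arrays 1 to 4, so array 3 changed sign. The mean dye term of the pair turned from -0.21 to 0.66 with that centring, beside a treatment ratio of -0.65. Against the median of the tested probes on the same array, however, the ratios under that centring were -0.97, -0.36, -1.11 and -1.24, all below 0, beside -0.98, -0.63, -1.39 and -1.03 with loess.

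**Figure D2:**
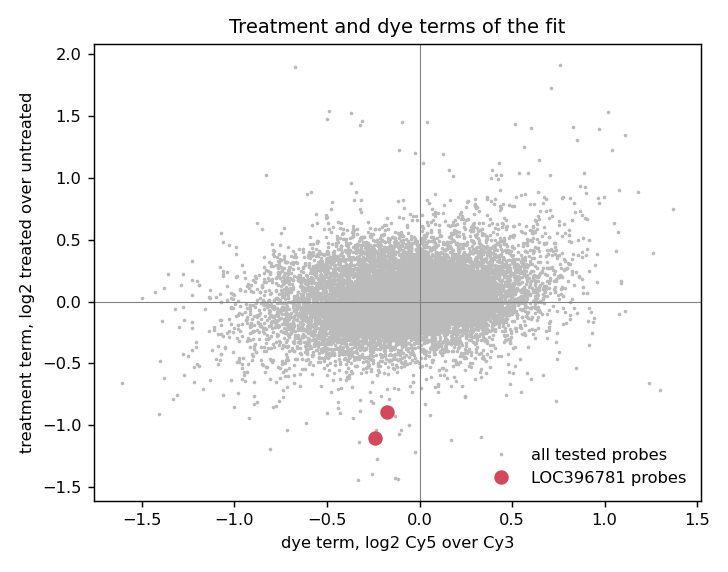
Treatment term (vertical, log2 treated over untreated) against dye term (horizontal, log2 Cy5 over Cy3) of the fit for the tested probes (grey) and the 2 tested LOC396781 probes (red). The red points lie at the lower edge of the cloud at -1.10 and -0.89, with dye terms of -0.24 and -0.18 near its middle.

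The level of LOC396781 RNA differed between arrays by more than between treated and untreated explants. On channel values put on one scale across arrays, the untreated level of A_72_P152696 was 11.65, 9.77, 13.57 and 13.63 (log2 signal) on arrays 1 to 4, and the treated level was 10.44, 9.24, 12.11 and 12.44. The untreated values span 3.86 log2 units, or 14.5 times, and for A_72_P716828 they span 3.16 units, or 8.95 times. Among tested probes with 4 values the median span was 0.89 units, or 1.85 times, and 16 probes (0.118%) had a wider span than A_72_P152696 while 49 (0.361%) had a wider one than A_72_P716828. For A_72_P716828 the untreated level was 10.50, 9.35, 12.06 and 12.51 and the treated level 9.68, 8.73, 10.75 and 11.70. Treated and untreated levels overlapped across arrays for both probes, although the treated level was the lower one on each array. The highest treated level lay below the lowest untreated level for 27 of 13570 tested probes (0.199%), and for neither of these 2.

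The whole probe set shared the 2 arrays with the highest level, but not the order of the other arrays. How many other probes have the same arrays on top was not counted. By the mean of both channels, 13 of 13 LOC396781 probes were highest on array 4 and 13 of 13 had array 3 next, while 8 had array 2 and 5 had array 1 lowest. The spread was also present within 1 dye. Within Cy5, the untreated level of A_72_P152696 was 3.86 units higher on array 4 than on array 2, and within Cy3 it was 1.93 units higher on array 3 than on array 1. Without array 2 the untreated span was 1.98 units (3.95 times) for A_72_P152696, with 2.39% of tested probes wider, and 2.01 units (4.03 times) for A_72_P716828, with 2.23% wider. Array 2, with its separate scan day, had both the lowest level and the ratio nearest to 0 of the 4 for both bright probes, and the part of the scan in either was not tested.

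**Figure D3:**
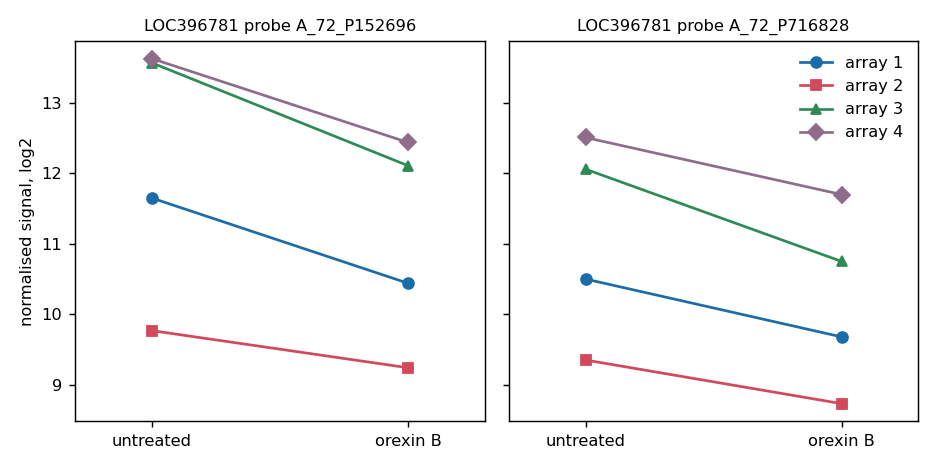
Normalised log2 signal (vertical) of the 2 tested LOC396781 probes in untreated and orexin B treated RNA, with 1 line per array. Every line runs downwards, from 13.63 to 12.44 on array 4 and from 9.77 to 9.24 on array 2 for A_72_P152696, and the lines stand further apart than they fall.

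Within an array, the bright probes ranked high among all probes. The untreated signal of A_72_P152696 lay at percentile 90.5 of the 43603 probes on average over the arrays, from 78.2 on array 2 to 96.7 on array 4. A_72_P716828 averaged percentile 86, from 73.5 to 93.8. A percentile places a probe within its array and does not compare transcripts, since probes differ in how well they bind.

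The remaining 11 probes were dim. They exceeded background clearly in Cy5 on 4 arrays (3 for A_72_P711793) but in Cy3 on only 1 or 2. For each of them the treated and the untreated channel were above background on only 2 or 3 arrays, so none met the condition for testing. Their mean ratios ran from -0.62 for A_72_P710390 to -0.12 for A_72_P710175. The offset of 50 added before taking logs lowers the size of a ratio in dim spots, so these sizes are not set against those of the bright probes.

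By array, the dim probes leaned lower on arrays 2, 3 and 4 and were mixed on array 1. On array 3 they ran from -1.09 to -0.55 with a median of -0.78, and on array 4 from -0.71 to -0.24 with a median of -0.57. On array 2 they ran from -0.44 to -0.03 with a median of -0.29. On each of these 3 arrays 11 of 11 were below 0. Among all other untested probes detected in the same way (well above background in Cy5 on at least 3 arrays and in Cy3 on 1 or 2), 51.3% were below 0 on array 2, 43% on array 3 and 56.1% on array 4.

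On array 1 the dim probes ran from -0.65 to 1.37 with a median of -0.13, and 6 of 11 were below 0, against 44.5% of the probes detected in the same way. The 2 largest values were 1.37 for A_72_P710175 and 0.93 for A_72_P710376. For these the untreated Cy3 signal on array 1 was at percentile 4.01 and 10.3 of all probes, whereas on the other arrays the untreated signal was at percentile 62.3 or above, and in neither was that Cy3 spot well above background. Of the 11 dim probes, 6 were below 0 on 4 of 4 arrays, against 142 of 3545 probes (4.01%) detected in the same way. Probes of 1 gene share their RNA and are not replicates, so these counts, and those by array above, describe 1 transcript read several times. The gene was chosen from this contrast in the same RNA, so the shares beside the counts are a description and no test.

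In the authors' deposited table, 10 of 13 probes were below 0 on 4 of 4 arrays. There A_72_P152696 stood at -1.45, -0.65, -1.51 and -1.19 on arrays 1 to 4, as given in the authors' deposited table. For A_72_P716828 the authors' deposited table has -1.24, -0.96, -1.65 and -0.73. The dim probe A_72_P710376 was at -0.03 on array 1 in the authors' deposited table, in place of 0.93, while A_72_P710175 stayed at 1.23.

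Only 1 other gene of the immunoglobulin class could be set beside LOC396781, and it was dim. Among genes of this class in the RefSeq table, the joining chain gene JCHAIN and the surrogate light chain gene VPREB3 had 0 probes named through an accession. No kappa, lambda, mu or alpha chain gene was found on the array by symbol or synonym, a search that misses genes listed otherwise. VPREB1, which encodes a surrogate light chain of B cell precursors, had 2 probes and neither was tested. A_72_P302939 stood at -0.42, -0.60, -0.50 and 0.26 on arrays 1 to 4 and A_72_P719588 at 0.20, -0.28, 0.51 and -0.49. Both were well above background in 4 Cy5 channels and in 0 Cy3 channels. Array 2 was the only array on which both probes were below 0. Their mean ratios were -0.31 and -0.01, and the scanner software gave -0.52 and -0.55. Probes with a transcript or cluster identifier that this table does not name were not assigned to a class.

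Markers of B cells themselves were at or near background. The B lymphocyte genes MS4A1 (CD20) and CD79A (a subunit of the B cell receptor) were each well above background in 0 Cy3 channels and in 3 Cy5 channels. Of 12 B cell genes on the array, 9 were above background in 0 Cy3 channels and 2 were tested. Over all 3029 named genes, 1637 had a tested probe, and 27.8% to 36.2% of all spots per array were above background in Cy3. The 2 tested genes were CD40 (-0.26 ± 0.18), a co-stimulatory receptor also carried by macrophages and epithelium, and the adaptor BLNK (-0.46 ± 0.19). The median of these 2 genes was -0.46, -0.36, -0.44 and -0.18 on arrays 1 to 4. Unlike LOC396781, neither gene was below 0 on every array. CD40 was at 0.255 on array 1, and BLNK was at -1.17 on array 1 and 0.36 on array 4. The estimates of both genes were below 0, with a median of -0.36 against 0.02 for all tested probes, and neither was called (adjusted p = 0.999 each, limma). The summed signal of the 12 genes was 12.55 to 15.2 (log2) in untreated and 13.5 to 14.83 in treated RNA. The part of B cell number in the LOC396781 ratio was not tested.

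Genes tied to plasma cells had estimates below 0 and none was called. Only 5 of 24 listed genes were named on the array, and these are not particular to plasma cells. The 4 tested ones were below 0, with a median of -0.45. That median was -0.25 without array 1, -0.051 with median centring and -0.17 with untreated RNA taken as Cy3 throughout. The -0.051 stands beside a median of 0.28 for all tested probes under median centring. CXCR4, the receptor that draws plasma cells to CXCL12, stood at -0.46, -0.28, -0.83 and -0.34 on arrays 1 to 4, an estimate of -0.48 ± 0.17. Like LOC396781 it was below 0 on every array and lowest on array 3. XBP1, the transcription factor that expands the secretory apparatus, stood at -0.41 ± 0.21 with 6 of 6 probes below 0, but at 0.01 on array 4.

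The chaperone genes of the secretory pathway did not follow LOC396781 array by array. HSP90B1, a chaperone of the endoplasmic reticulum that folds immunoglobulins, was at -3.37, 0.65, -0.76 and 0.46 on arrays 1 to 4, an estimate of -0.75 ± 0.39, and its 8 probes ranged from -0.75 to -0.03. PDIA4, a disulfide isomerase, was at -1.33, 0.00, -0.83 and 0.58. On array 4, where LOC396781 stood at -1.002, the median of the plasma cell list was 0.23, a difference of -1.23, and on array 1 the list at -1.11 lay below LOC396781 by 0.10. The summed signal of the 5 genes was 15.41 to 16.82 in untreated and 15.43 to 17.74 in treated RNA. None of these genes was called (adjusted p = 0.999 each, limma), and their part in the LOC396781 ratio was not tested.

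Receptors for IgG and its transport were split. Of 10 genes of this list on the array, 6 were tested, 3 below and 3 above 0, with a median of -0.16 and 0 called by limma. The median was -0.34 without array 1, -0.39 over genes above background in every channel, 0.068 with median centring and 0.21 with untreated RNA taken as Cy3 throughout. Its sign thus depended on these choices. With median centring, however, all tested probes had a median of 0.28, so the list still lay below them. FCGR3A, the low-affinity IgG receptor of natural killer cells and macrophages, was at 0.00, -0.56, -0.35 and -1.74 on arrays 1 to 4, an estimate of -0.66 ± 0.23 with 3 of 3 probes below 0. FCER1G, the signalling chain it pairs with, was at 0.23, -0.30, -0.33 and -1.17, an estimate of -0.39 ± 0.22. Both had their lowest value on array 4 and were not below 0 on array 1, where LOC396781 was at -1.02.

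FCGRT, the neonatal Fc receptor that carries IgG across epithelia and protects it from breakdown, was at 0.56, 0.39, -0.68 and 0.36, an estimate of 0.16 ± 0.24, with 3 of 3 probes above 0. Its partner chain B2M, which also serves class I molecules, was at -0.40 ± 0.19 and below 0 on 4 of 4 arrays. FCGR2B, the inhibitory IgG receptor, was at 0.30 ± 0.28, and TRIM21, a cytosolic IgG receptor, at 0.08 ± 0.32 with 1.64 on array 3. PIGR, which carries polymeric immunoglobulin A and M, was above background in 1 Cy3 and 4 Cy5 channels and was not tested. FCAR, an immunoglobulin A receptor, was above background in 0 Cy3 and 3 Cy5 channels, and FCGR1A and FCER2 in 0 channels.

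**Figure D4:**
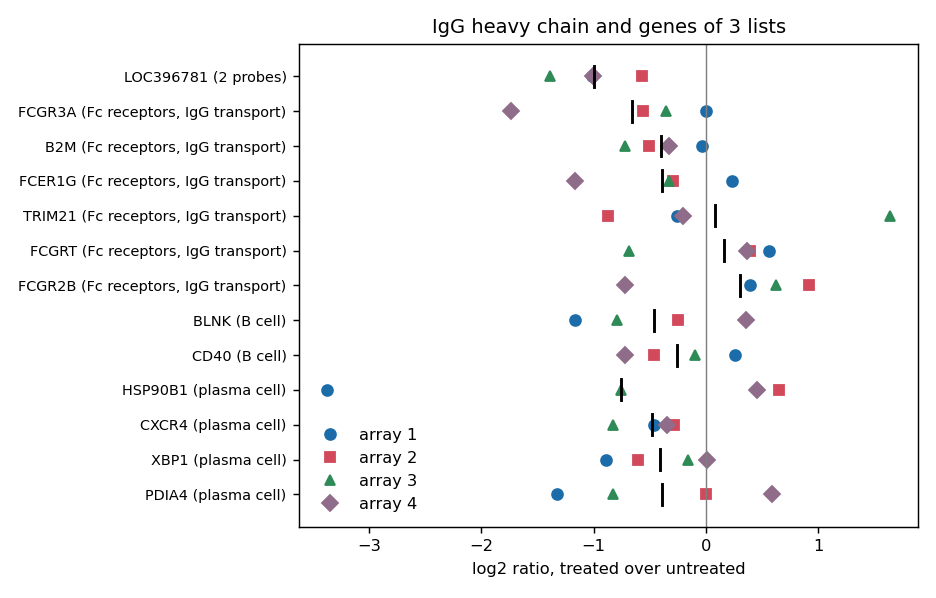
Log2 ratio of treated over untreated RNA (horizontal) on each array for the mean of the 2 LOC396781 probes (top) and for the tested genes of the Fc receptor, B cell and plasma cell lists, with a black bar at the mean of the 4 arrays. LOC396781 lies between -1.39 and -0.57, whereas HSP90B1 runs from -3.37 to 0.65 and FCGRT from -0.68 to 0.56.

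Signals that attract B cells and plasma cells or drive class switching were split as well. Of 17 such genes on the array 6 were tested, 3 below and 3 above 0, with a median of 0.01 and 0 called by limma. The chemokine genes CXCL12 (-0.17 ± 0.18), CCL19 (0.02 ± 0.18) and CCL21 (0.18 ± 0.20), which guide lymphocytes in tissue, stood within 1 SE of 0, as did TGFB1 (0.00 ± 0.18). IL6, a plasma cell survival factor, was at -0.33 ± 0.21 and LTA, a lymphotoxin, at 0.39 ± 0.26. On arrays 1 to 4 LTA stood at 0.359, -0.285, 1.8 and -0.327. The survival factor genes TNFSF13 and TNFSF13B, and CCL25, CCL28, IL10, IL4, IL5, IL13, IL21, IFNG and CD40LG, were too dim to be tested.

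Of the lists for other cells of the explant, the macrophage list had a median below 0 on every array, as LOC396781 did. The medians on arrays 1 to 4 were -0.03, -0.65, 0.03 and -0.55 for 5 T and NK cell genes and -0.36, -0.28, -0.79 and -1.17 for 6 macrophage and myeloid genes. They were -0.77, -0.65, -0.43 and 0.61 for 5 epithelial genes and 0.71, -0.38, 0.26 and -0.57 for 6 genes of stroma and smooth muscle. LOC396781 lay below the macrophage median on arrays 1 to 3 and 0.17 above it on array 4. Of the 6 macrophage genes 5 had estimates below 0, and none was called. The lowest were GP91-PHOX (-1.04) and CD86 (-0.68). The list was chosen with earlier results of these data known, so its low median is only a description. The summed signal of the macrophage list was 12.26 to 14.58 (log2) in untreated and 12.38 to 14.15 in treated RNA. The medians of the estimates were -0.16 for 4 granulocyte and mast cell genes, -0.34 for 3 endothelial genes and 0.36 for 2 trophoblast genes, and no red blood cell gene was named on the array. The part of these cells in the LOC396781 ratio was not tested.

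The genes nearest to LOC396781 in their 4 array ratios included genes of phagocytes and lymphocytes. Over the 1603 named genes with 4 values, the nearest by Euclidean distance was GP91-PHOX (distance 0.50), the catalytic subunit of the phagocyte oxidase, at -1.01, -0.42, -1.26 and -1.46 on arrays 1 to 4. The next were the survival gene BCL2A1 (0.63), the lymphocyte homing receptor gene CCR7 (0.74), the T cell chemokine gene CCL5 (0.76) and DDIT4 (0.79), an inhibitor of mTOR signalling. The distance between the 2 LOC396781 probes themselves was 0.57. It runs from probe to probe, while the other distances run to the pair's mean, so they are not compared. A gene was represented by its brightest tested probe, and a dimmer probe of CHI3L1, named after its values were seen, lay at 0.58. Of the 20 nearest probes over all tested ones, 12 carry no gene name here. This nearness is a description over 4 arrays, and it uses the ratios for which LOC396781 was chosen.

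Genes nearest in level over the 8 channels were different ones. Pearson's r with LOC396781 across the 8 normalised channel values, which share arrays in pairs, was 0.955 for C1QA, the A chain of complement C1q made by macrophages, 0.905 for TCEAL2, 0.899 for PLA2G7, a lipase of macrophages, 0.897 for ADM5 and 0.896 for FCER1G. The 2 LOC396781 probes correlated with each other at 0.985. For GP91-PHOX r was 0.673 and for CCR7 it was -0.21. The treatment ratios of these 5 genes, in the same order, were -0.12, -0.08, -0.27, -0.21 and -0.39. By single probes the highest r was 0.964, for a probe of HMGB1, a chromatin protein, with a treatment ratio of -0.47, named after its values were seen.

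The mean LOC396781 ratio stayed below 0 in the settings tried. The mean of the 2 bright probes was -1.17 with the scanner software's ratio, -0.95 with no background subtraction and -0.65 with median centring, under which all tested probes had a median of 0.28, a difference of -0.93 for the pair. Leaving out each array in turn gave -1.10 to -0.89 for these 2 probes.

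**Figure D5:**
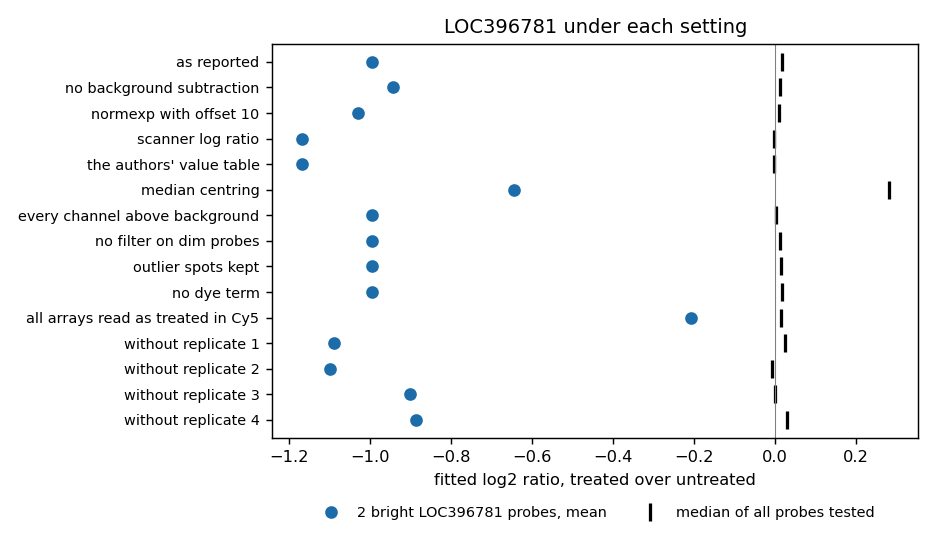
Fitted log2 ratio of treated over untreated RNA (horizontal) for the mean of the 2 bright LOC396781 probes (blue) and median of all probes tested (black bar), with 1 row per setting. The blue points lie between -1.17 and -0.65 except where untreated RNA is taken as Cy3 throughout (-0.21), and the black bar leaves 0 clearly with median centring (0.28).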

How the data were processed

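Per the file headers, the software behind the deposited spot intensities was Agilent Feature Extraction 10.7.3.1, run on design 026440. A log10 ratio of Cy5 over Cy3 stands in the same deposited files. The series' value table, as deposited by the authors, holds log2 ratios of the processed signals with the sign of arrays 2 and 4 turned (its correlation with the scanner ratio was 1, -1, 1 and -1), uncentred, with medians of 0.18, 0.29, 0.01 and 0.03.

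Median spot and local background signals were corrected by normexp (offset 50), normalised by loess within each array with control and outlier spots at weight 0, and averaged per probe (limma 3.58.1, R 4.3.3). Outlier spots were left out, so 213 tested probes lacked a value. The fit (lmFit, eBayes) had a treatment and a dye term, 2 residual and 5.09 prior degrees of freedom, two-sided p-values adjusted by Benjamini-Hochberg and a threshold of 0.05. Channel levels across arrays were scaled by Aquantile. The fit was tested on simulated data.

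RefSeq accessions without versions (Sscrofa11.1) named 6700 probes of 3029 genes. A gene is its brightest tested probe. Coordinates are left out, since no build stands in the array files. The text names all LOC396781 probes, genes of the immunoglobulin class, tested genes of the lists, and the 5 nearest named genes by distance and by correlation. Members and lists were chosen with earlier results of these data known. Class membership was read from gene symbols and synonyms, since the tables used here give no product names. P-values and SEs of the fit rest on the spread between these arrays after the dye term, moderated by the spread of all tested probes. Alternatives varied background, normalisation, filter, outliers, dye term, dye reading and arrays.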

Additional observations from a re-analysis of the deposited data

Results flagged for a closer look

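For 3 of the 41 sets of 4 array values examined, 1 array stood apart from the rest by Dixon's criterion, which chance alone meets about 1 time in 20. FCGRT was at -0.68 on array 3 and between 0.36 and 0.56 on the others. CCR7 was at -1.66 on array 3 and between -0.59 and -0.47 on the others. TCEAL2 was at 0.24 on array 4 and between -0.21 and -0.15 on the others. No LOC396781 probe was among them, including A_72_P710175 with its 1.37 on array 1.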

How the results depend on the processing

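Of 174 values recomputed under another setting, 157 stayed within the spread between arrays or, for counts, within 1.5 times. Part of that count was fixed in advance. The median of 2 probes is their mean, and the LOC396781 ratio could not move without the dye term or with a filter that keeps the same 2 probes. The scanner ratio and the authors' table both gave -1.17 for these probes. In no alternative did the mean LOC396781 ratio change sign. The mean over the tested LOC396781 probes was -0.65 with median centring and -0.48 with no filter on dim probes, where 13 probes enter. It was -0.052 over 12 probes when untreated RNA is taken as Cy3 throughout. Leaving out each array gave -0.90 to -0.55, because 10 probes pass the filter without array 1 and 12 without array 2. For the 2 bright probes alone it gave -1.10 to -0.89. Probes called for treatment ranged from 0 to 6 over the left-out arrays, and the 6 came without array 2, with no LOC396781 probe among them. With median centring 6869 probes were called for the dye, and the LOC396781 dye term was 0.66. The B cell median, over few genes, was -0.13 with median centring, under which all tested probes had a median of 0.28. It was -0.067 with no filter on dim probes and 0.097 with untreated RNA taken as Cy3 throughout. Under that reading the Fc receptor median was 0.21 and the median of attraction and class switching genes 0.35. The VPREB1 probe A_72_P719588 was at -0.55 with the scanner ratio and in the authors' deposited table. VPREB1 has no value where every channel must exceed background. The scan-day alternative is the fit without array 2. Each ratio sets treated against untreated RNA on 1 array, so the fit is already paired within arrays. The dim Cy3 signal of 11 of 13 probes limits what they show.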
